A study of Mus musculus with 4 samples.

Results

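The genes described here encode parts of the lysosome and of the autophagy machinery. They are 36 genes chosen by name, of which 35 were measured, among 18194 genes on the arrays in all. The remaining gene, Cd63, was not analysed here. Each gene was represented by its brightest probe set, a group of short probes on an Affymetrix array, taken as the one with the highest mean over the 4 arrays.

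The cells were group 2 innate lymphoid cells (ILC2) from mice of the C57BL/6 strain, that is, lymphocytes that make type 2 cytokines without a rearranged antigen receptor. Littermate controls gave 2 arrays, and mice in which the gene of the transcription factor ETS1 had been deleted gave the other 2. All 4 samples had spent 2 weeks on OP9-DL1, a stromal cell line carrying a Notch ligand, in medium with the cytokines IL-7 and IL-33, and were sorted as ICOS+ before RNA was made. The sources used here do not give the ages of the mice, how Ets1 was deleted, or whether the arrays of a group come from separate animals. The p-values therefore reflect the spread among these samples alone, and that spread may be technical. The single comparison is Ets1-deleted minus control, n = 2 arrays per group, and asks how the genotypes differ in these cells.

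Lysosomes are acidic organelles in which proteases, glycosidases and lipases break down material brought in from outside the cell or from its own cytoplasm. A proton pump of the membrane, the V-ATPase, keeps them acidic. In autophagy a membrane grows around cytoplasm or organelles, closes to an autophagosome and fuses with the lysosome. Many genes of both systems carry a short E-box in their promoters that the transcription factors TFEB, TFE3 and MITF recognise, and in ILC2 autophagy is known to support survival and cytokine production.

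Ets1 itself was lower in both arrays labelled as deleted. Its intensities were 1272 and 1231 in the controls against 138 and 180, and its 4 probe sets differed by between -2.78 and -3.51 on the log2 scale (limma, adjusted p = 2.17e-08 for the brightest). The position of these probe sets relative to the deletion is not known here. Array medians lay between 96.5 and 97.7 intensity units. Of 12 ILC2 marker genes 10 were measured, and in both controls all 10 exceeded 97.4 intensity units, the limit above which genes were tested (the median of all probe sets). Between the genotypes 6 of these 10 rose and 2 fell, among them Thy1 (1.91) and Klrg1 (-1.60). That is 80% past an adjusted p of 0.05 in limma, beside 26.7% of all tested genes. Il1rl1 and Areg were not analysed here.

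Lysosomal genes moved in both directions, while most of the autophagy genes and the 3 measured pump subunits did not pass the test. Of the 35 measured genes, 7 were higher in the Ets1-deleted arrays and 5 were lower, at an adjusted p of 0.05 in limma. That is 34.3%, beside 26.7% of all 10873 tested genes (13.9% higher and 12.8% lower). Among the 7, Mitf reached the test only through its Ets1-deleted values, so these counts include a call that is a description. The 19 lysosomal genes, counted with the transcription factors that control them, Mitf included, held 10 of these calls (52.6%, 6 higher and 4 lower). The 13 autophagy genes held 2 (15.4%). Of the 3 acid pump genes none was called, and none had an unadjusted p under 0.05. The median log2 difference was 0.09 over the 35 genes, 0.04 over the lysosomal and 0.10 over the autophagy genes, against -0.004 over all tested genes, whereas the median size of the difference regardless of sign was 0.27 beside 0.19. Of the 12 called genes 6 differed by less than 1.5-fold and 1 by at least 2-fold. In bulk RNA a change in the share of a cell type and a change in RNA per cell cannot be told apart.

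**Figure D1:**
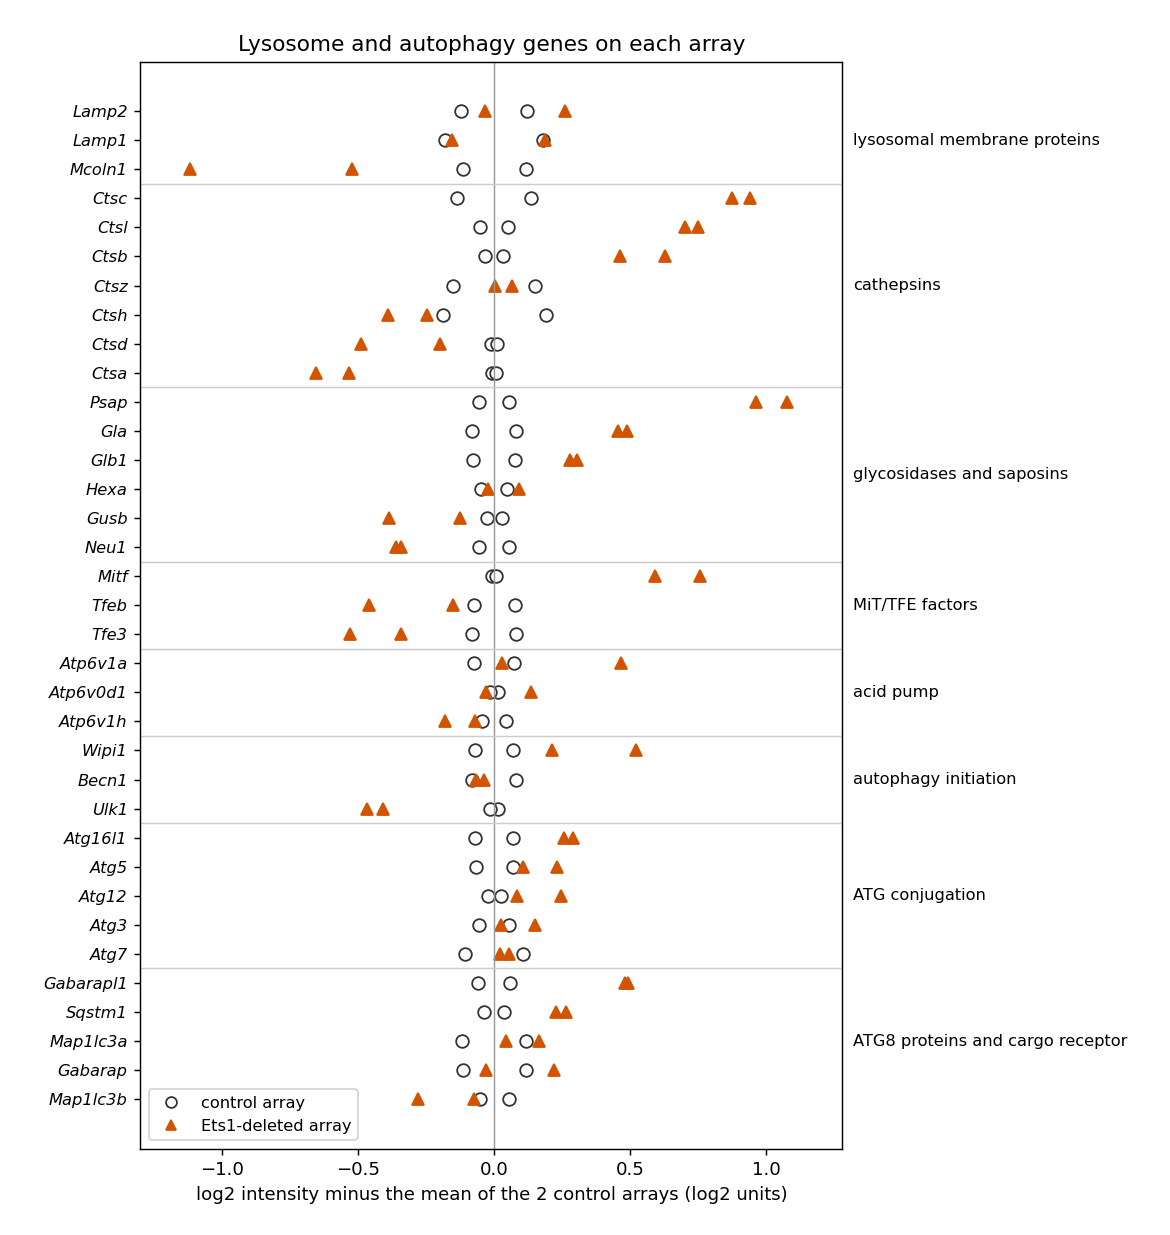
Values of the 35 measured genes on each array, as log2 intensity minus the mean of the 2 control arrays (open circles, control arrays; triangles, Ets1-deleted arrays), grouped by role. By the mean of their triangles, Psap, Ctsc and Ctsl lie farthest to the right and Mcoln1 farthest to the left, while the circles and triangles of Lamp1 and Hexa interleave.

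Groups did not overlap for 24 of the 35 genes (68.6%), beside 62.6% of all tested genes. They were higher for 13, beside 30.9% of all tested genes, and lower for 11, beside 31.7%. All 12 calls rest on variances shared across genes: with each gene's own variance alone their adjusted p in limma's model lay between 0.105 and 0.316, and 13 of the 10873 genes passed. With 2 arrays a group, the smallest p of an exact permutation test is 0.333.

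The cathepsins, the main lysosomal proteases, went both ways, with 3 of 7 higher and 1 lower (57.1% called, beside 26.7% of all tested genes). Ctsc, an exopeptidase that activates the serine proteases of granules, read 1007 and 834 intensity units in the controls and 1677 and 1757 in the Ets1-deleted arrays. Both Ets1-deleted arrays thus lay well above both controls, and the gene rose by 0.91 ± 0.12 (SE; 1.87-fold; limma, adjusted p = 0.000154). Ctsl, an endopeptidase of the cysteine class, read 297 and 276 against 465 and 481. It rose by 0.73 ± 0.11 (1.65-fold; limma, adjusted p = 0.000393), with little spread inside either group. Ctsb, a cysteine protease with both endopeptidase and exopeptidase activity, read 1685 and 1768 in the controls and 2376 and 2668 in the Ets1-deleted arrays, a rise of 0.54 ± 0.11 (limma, adjusted p = 0.00365). All 5 probe sets of Ctsb gave positive differences, between 0.18 and 0.72.

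Ctsa, a carboxypeptidase that also protects neuraminidase and beta-galactosidase in the lysosome, was the cathepsin that fell. Its intensities were 1391 and 1405 in the controls and 965 and 887 in the Ets1-deleted arrays, a log2 difference of -0.59 ± 0.11 (limma, adjusted p = 0.00172). Ctsd, the aspartic protease, was below both controls in both Ets1-deleted arrays (3555 and 3611 against 3123 and 2554) but stayed short of the threshold at -0.34 ± 0.12 (limma, adjusted p = 0.0593). Without Ets1-deleted 1 the Ctsd difference passed (-0.49, adjusted p = 0.0146 in limma), as it did under 4 other settings, while without Ets1-deleted 2 it was -0.20. Ctsh, an aminopeptidase, read 191 and 249 in the controls and 166 and 184 after deletion, and differed by -0.32 ± 0.14 with adjusted p = 0.109 in limma, and it passed without control 1 (-0.51). Ctsz, a carboxypeptidase, read 941 and 1158 against 1094 and 1047, with both Ets1-deleted arrays between the controls, and differed by 0.04 ± 0.12, with a 95% interval from -0.24 to 0.31. With the mean over all probe sets the differences shrank to 0.48 for Ctsc, 0.45 for Ctsl and -0.32 for Ctsa, each still past the threshold.

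Among the glycosidases and their activators 2 of 6 rose and 1 fell (50% called, beside 26.7% of all tested genes). Psap, the precursor of the saposins that present sphingolipids to lysosomal enzymes, read 653 and 606 intensity units in the controls and 1225 and 1326 in the Ets1-deleted arrays. Both Ets1-deleted arrays lay far above both controls, and the gene rose by 1.02 ± 0.11 (2.03-fold; limma, adjusted p = 3.15e-05), the largest rise of the 35 genes under all settings except with the array floor subtracted, where Mitf exceeded it (1.499 against 1.09). Its other probe set was higher by 0.50. Gla, the alpha-galactosidase, read 237 and 265 in the controls and 343 and 352 in the Ets1-deleted arrays. It rose by 0.47 ± 0.11 (limma, adjusted p = 0.00834), a call that was lost without control 1 (0.39, adjusted p = 0.0868) and when its 3 probe sets, of which 2 lie below the limit, were averaged (0.19, adjusted p = 0.124).

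Neu1, the sialidase, fell by 0.35 ± 0.11 on the log2 scale (limma, adjusted p = 0.0336), with intensities of 187 and 174 in the controls against 140 and 142. Leaving out any 1 array ended this call, with adjusted p in limma of 0.232 without control 1 (-0.30), 0.074 without control 2 (-0.41), 0.0887 without Ets1-deleted 1 (-0.34) and 0.0664 without Ets1-deleted 2 (-0.36), and so did the mean over probe sets (-0.20, adjusted p = 0.0938). Glb1, the beta-galactosidase, read 336 and 374 against 438 and 430, a difference of 0.29 ± 0.11 that missed the threshold (limma, adjusted p = 0.076). Gusb, the beta-glucuronidase, read 426 and 442 against 398 and 332 and differed by -0.26 ± 0.12 (limma, adjusted p = 0.145). Both passed in the fit to means over probe sets (0.29 and -0.28). Glb1 has only 1 probe set, so its values are the same there and no further probe set backs that call. Without Ets1-deleted 1 the Gusb difference was -0.39. Hexa, the alpha subunit of beta-hexosaminidase, read 1242 and 1164 against 1281 and 1185, and these groups interleave (0.03 ± 0.11, 95% interval -0.21 to 0.28).

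Of the lysosomal membrane proteins, the calcium channel gene Mcoln1 (mucolipin 1, through which the lysosome releases calcium) fell and the 2 abundant coat proteins did not pass. Mcoln1 read 338 and 396 intensity units in the controls and 169 and 255 in the Ets1-deleted arrays. Both Ets1-deleted arrays were below both controls, though they lay 0.60 apart on the log2 scale, and the difference was -0.82 ± 0.17 (1.76-fold; limma, adjusted p = 0.00353). Without Ets1-deleted 1 it was -0.52, and with the mean over its 3 probe sets, all lower, -0.45, both still called. Lamp1 read 2107 and 1639 in the controls and 2113 and 1671 in the Ets1-deleted arrays, so the spread within each group far exceeded the difference of 0.02 ± 0.15. Lamp2, which is also needed for fusion with autophagosomes, read 2861 and 2421 against 2575 and 3149 (0.11 ± 0.13, 95% interval -0.18 to 0.40).

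The 3 transcription factors of the family that controls these genes went in different directions. Tfe3 had intensities of 485 and 542 in the controls against 355 and 404, and it fell (-0.44 ± 0.12; limma, adjusted p = 0.0173). Its adjusted p was 0.133 without control 2 (-0.36) and 0.0924 without Ets1-deleted 1 (-0.34), which ended the call. Tfeb read 253 and 228 in the controls and 174 and 216 in the Ets1-deleted arrays, below both controls, and did not pass (-0.31 ± 0.13; limma, adjusted p = 0.104), except without Ets1-deleted 2 (-0.46, adjusted p = 0.0224). Mitf, known from melanocytes, osteoclasts and mast cells, went the other way, with intensities of 82.8 and 83.5 in the controls and 140 and 125 after deletion (0.67 ± 0.11). Mitf was below the limit in both controls and reached the test only through its Ets1-deleted values, so its call is a description. With each array's 5th percentile subtracted its difference was 1.499.

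The E-box that these factors recognise was looked up in the promoters of the genes. RefSeq promoter windows of GRCm38.p6, reaching from 250 bases before to 50 after each annotated start, were on hand for 29 of the 36 genes (36 windows), and for Ctsb, Ctsh, Atp6v1h, Becn1, Atg12, Atg16l1 and Map1lc3a none was. The E-box CACGTG, which reads the same on both strands, stood in 12 of the 36 windows (33.3%), each of a different gene, against 7.15% of all 32851 windows. The longer palindrome around it, GTCACGTGAC, was in none of the 36 windows and in 0.326% of all windows. The ETS site CCGGAAG, searched on both strands and unable to overlap the E-box, was in 2 windows (5.56%, Atg3 and Glb1) against 8.86% of all. Of the 104 other pathway genes with a window, 22 held an E-box (21.2%) and 21 the ETS site (20.2%), beside 8.09% and 9.93% of all genes with a window. Such matches describe letters in these windows, and binding was not measured.

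Genes with an E-box were found among those that fell, rose and did neither. Of the 12, Mcoln1 and Ctsa were lower, Ctsl and Gla higher and 8 did not pass, with a median difference of 0.07. The 16 measured genes whose windows lack an E-box held 4 higher calls, Mitf included, and 3 lower calls, also with a median of 0.07. Of all tested genes 13.9% were higher and 12.8% lower, and both sets are small. The bases before the start are shown for 4 genes that cover these cases, 5′ to 3′ in the direction of transcription, with each E-box in capitals. Mcoln1 and Ctsa fell, Gla rose, and Lamp1, which has the most E-boxes, overlapped between the groups. For Ctsa, which has 2 windows in the table, the one that holds an E-box is given.

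Mcoln1 promoter, chr8:3500269-3500518, plus strand: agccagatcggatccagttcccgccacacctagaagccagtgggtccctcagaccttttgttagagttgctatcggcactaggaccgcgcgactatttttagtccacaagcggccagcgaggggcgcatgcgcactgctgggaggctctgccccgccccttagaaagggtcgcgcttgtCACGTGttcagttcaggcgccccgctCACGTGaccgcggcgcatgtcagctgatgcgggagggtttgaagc
Ctsa promoter, chr2:164833523-164833772, plus strand: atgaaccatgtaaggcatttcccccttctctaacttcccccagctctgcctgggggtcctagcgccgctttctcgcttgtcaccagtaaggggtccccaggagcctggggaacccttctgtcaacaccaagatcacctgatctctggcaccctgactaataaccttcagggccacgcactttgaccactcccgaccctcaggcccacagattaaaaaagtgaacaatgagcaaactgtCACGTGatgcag
Gla promoter, chrX:134601006-134601255, minus strand: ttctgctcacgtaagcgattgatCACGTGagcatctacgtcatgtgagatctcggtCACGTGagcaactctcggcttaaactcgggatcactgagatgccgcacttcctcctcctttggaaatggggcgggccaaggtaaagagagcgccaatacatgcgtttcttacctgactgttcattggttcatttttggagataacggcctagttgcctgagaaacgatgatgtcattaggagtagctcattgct
Lamp1 promoter, chr8:13158911-13159160, plus strand: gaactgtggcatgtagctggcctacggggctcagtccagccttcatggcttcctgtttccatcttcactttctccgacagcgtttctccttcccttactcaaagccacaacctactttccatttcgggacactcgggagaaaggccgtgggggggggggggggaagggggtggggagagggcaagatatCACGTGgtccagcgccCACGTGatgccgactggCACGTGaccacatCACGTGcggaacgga

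The E-boxes of Mcoln1 begin 71 and 45 bases before the start, and the 4 of Lamp1 lie between 61 and 15 bases before it. In Gla the 2 E-boxes are farther away, at 227 and 194 bases. The one printed for Ctsa begins 12 bases before its start, and another lies just after it.

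**Figure D2:**
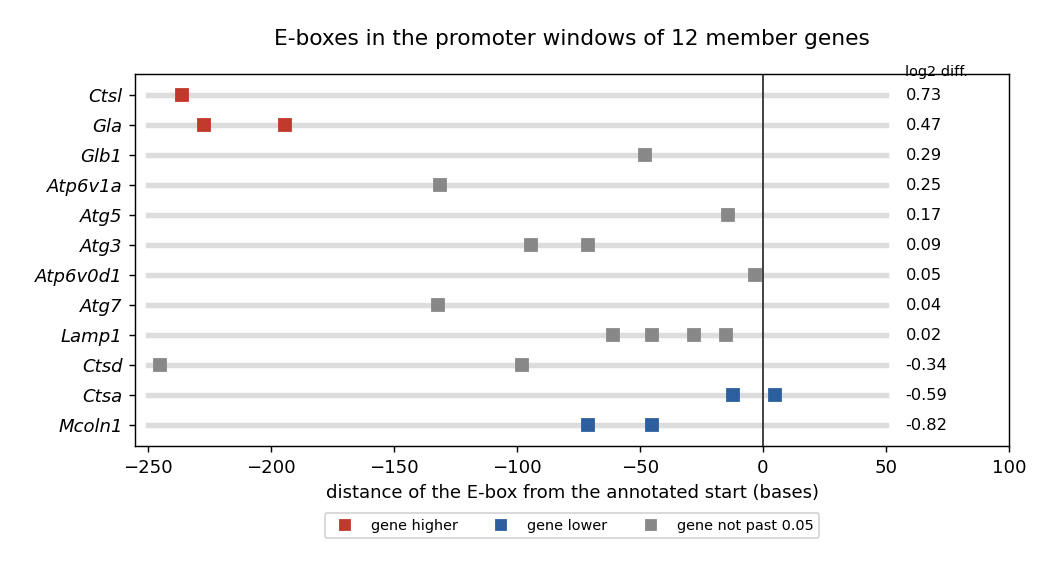
Position of each E-box in the promoter windows (grey bars) of the 12 genes that hold one, in bases from the annotated start (vertical line), with the gene's log2 difference at the right. Genes are sorted by that difference, from Ctsl (0.73) at the top to Mcoln1 (-0.82) at the bottom, and E-boxes close to the start occur in genes that fell and in genes that did not pass the test.

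The acid pump was represented by 3 subunits, and none passed. Atp6v0d1, of the membrane sector, read 1062 and 1042 intensity units in the controls and 1156 and 1030 in the Ets1-deleted arrays (0.05 ± 0.11, 95% interval -0.19 to 0.30). Atp6v1a, the catalytic subunit that splits ATP, read 1056 and 954 against 1385 and 1023. Only Ets1-deleted 1 stood apart there, and the difference of 0.25 ± 0.14 did not pass (limma, adjusted p = 0.241), except without Ets1-deleted 2 (0.46, adjusted p = 0.0211). The other bright probe set of Atp6v1a read 306 and 279 against 401 and 338, with both Ets1-deleted arrays above both controls (0.33). With the mean over its probe sets the Atp6v1a difference was 0.29 and did not pass. Atp6v1h, a regulatory subunit, was slightly below both controls (781 and 829 against 711 and 767; -0.12 ± 0.11).

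Autophagy starts with the kinase ULK1, and its gene was the autophagy member that fell. Ulk1 read 345 and 337 intensity units in the controls and 257 and 246 in the Ets1-deleted arrays, a tight separation of -0.44 ± 0.11 (limma, adjusted p = 0.0101). The call was lost without control 1 (-0.42, adjusted p = 0.0586) and when its probe sets were averaged (-0.15, adjusted p = 0.181), of which the other bright one went the opposite way (0.13). Wipi1, which binds the lipid made at the growing membrane, read 167 and 184 against 252 and 204 and missed the threshold (0.37 ± 0.13; limma, adjusted p = 0.0537). It passed under 6 of the alternatives, among them without control 2 (0.44) or Ets1-deleted 2 (0.52). Becn1, a subunit of the lipid kinase complex that makes this lipid, read 831 and 742 against 750.3 and 765, with both Ets1-deleted arrays between the controls (-0.05 ± 0.11, 95% interval -0.30 to 0.19).

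The conjugation system attaches LC3-like proteins to the membrane, with ATG7 as the activating enzyme, ATG3 as the conjugating enzyme and ATG12, ATG5 and ATG16L1 joined into the complex that directs it. None of its 5 genes passed (limma, adjusted p between 0.0949 and 0.85), and 1 had an unadjusted p under 0.05. That was Atg16l1, which read 173 and 190 intensity units in the controls and 222 and 217 in the Ets1-deleted arrays (0.27 ± 0.11). Differences of the others were 0.04 for Atg7, 0.09 for Atg3, 0.16 for Atg12 and 0.17 for Atg5, with 95% intervals that reach at most 0.42. Groups overlapped for Atg3 (1312 and 1216 against 1402 and 1286) and Atg7 (297 and 256 against 280 and 286), while Atg5 (289 and 263 against 296 and 324) and Atg12 (315 and 326 against 380 and 340) were slightly above both controls. For Atg7 a dimmer probe set gave 0.70, reading 173 and 219 against 349 and 288.

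LC3 and GABARAP proteins coat the autophagosome and bind cargo receptors. Gabarapl1 rose, with intensities of 322 and 350 in the controls and 468 and 472 in the Ets1-deleted arrays (0.49 ± 0.11, 1.40-fold; limma, adjusted p = 0.00596). Its other probe set was higher by 0.79, and the call was lost without control 1 (0.43, adjusted p = 0.0547). Its close relatives did not pass: Gabarap read 2821 and 2403 against 3033 and 2550 (0.10 ± 0.13). Map1lc3b, the LC3 gene most used as an autophagy marker, read 2879 and 3099 against 2463 and 2841 (-0.18 ± 0.12, 95% interval -0.43 to 0.08), and Map1lc3a read 614 and 722 against 746 and 687, with overlapping groups (0.10 ± 0.12). Sqstm1, the cargo receptor p62, was above both controls in both Ets1-deleted arrays (867 and 914 against 1069 and 1042), at 0.25 ± 0.11 with adjusted p = 0.12 in limma.

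**Figure D3:**
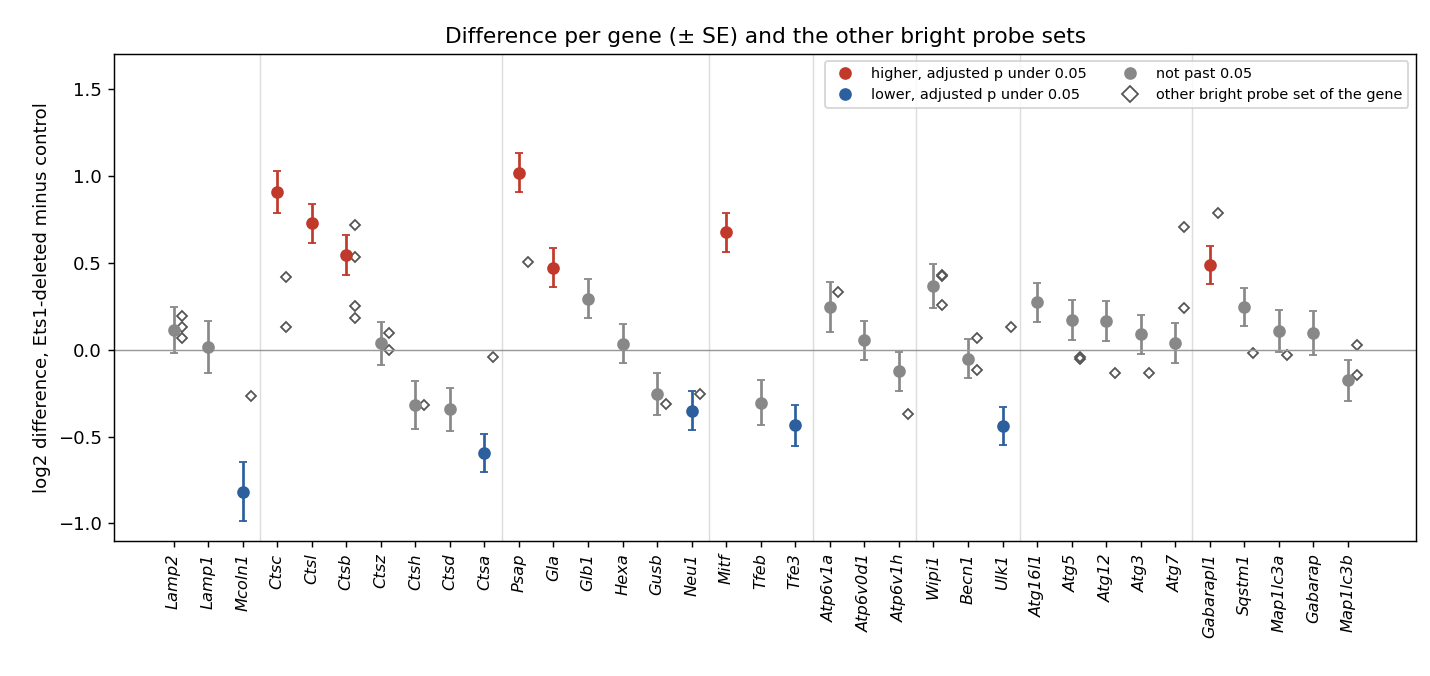
Log2 difference, Ets1-deleted minus control, for the brightest probe set of each of the 35 genes (circles with bars of ± SE; red higher, blue lower, grey not past the threshold), with the gene's other probe sets over the limit as open diamonds. Psap (1.02) and Mcoln1 (-0.82) mark the ends, and the diamonds of Ulk1 (0.13) and Atg7 (0.70) lie apart from their circles.

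Other genes of the same pathways, from a list of 131, were measured for 120 and tested for 117, of which 17 were higher and 18 lower (29.9% called, beside 26.7% of all tested genes). Of 25 tested lysosomal hydrolases and activators 2 were higher and 10 lower (48% called), with a median of -0.12. Man2b1, a mannosidase, fell from 1344 and 1308 intensity units to 745 and 663 (-0.92 ± 0.11), and the cathepsin gene Ctss from 2707 and 2557 to 1579 and 1371 (-0.84 ± 0.12). Lgmn, the asparaginyl protease, and Idua, the iduronidase, fell by 0.59 and 0.58, whereas Smpd1, the acid sphingomyelinase, rose by 0.49. Of 21 membrane and transport genes 6 were higher and 2 lower (38.1% called). Igf2r, the receptor that brings hydrolases to the lysosome by their mannose 6-phosphate, rose from 120 and 129 to 351 and 295 (1.37 ± 0.12), Cd68, a membrane glycoprotein abundant in macrophages, by 0.90, the iron transporter gene Slc11a2 by 0.64 and the sorting receptor gene Sort1 by 0.55. Tpcn2, a lysosomal ion channel gene, fell by 0.43. In limma the adjusted p values of these 10 genes lay at or below 0.0109.

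Pump, autophagy and nutrient sensing genes on that list also went both ways. In that order, calls made up 20%, 17.6% and 27.3% of their tested genes, beside 26.7% of all tested genes. Of 15 other pump subunits Atp6v0d2, an isoform of osteoclasts and macrophages, rose from 97.1 and 103 intensity units to 224 and 215 (1.14 ± 0.11), Atp6v1g1 rose by 0.49 and Atp6v1g2 fell by 0.55, and 12 did not pass. Of 34 other autophagy genes 4 were higher and 2 lower. Bnip3, a mitophagy receptor that responds to hypoxia, rose from 913 and 920 to 1859 and 1677 (0.95 ± 0.11) and Atg13, a partner of ULK1, by 0.36. Atg4c, a protease that processes LC3-like proteins, fell by 0.71 and Pik3r4, of the lipid kinase complex, by 0.35. Tfec, another member of the TFEB family and counted among these 4, read 74.9 and 109 against 153 and 168 (0.83). Its control mean of 90.2 is below the limit, so it reached the test only through its Ets1-deleted values and its call is a description. Of 22 genes that sense nutrients at the lysosome 3 were higher and 3 lower: Lamtor4, of the complex that anchors mTORC1, fell from 852 and 887 to 418 and 467 (-0.98 ± 0.11), Flcn and Castor1 fell by 0.52 and 0.40, and the GTPase genes Rraga and Rragd rose by 0.54 and 0.40. In limma the adjusted p values of these 13 genes lay at or below 0.0306.

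**Figure D4:**
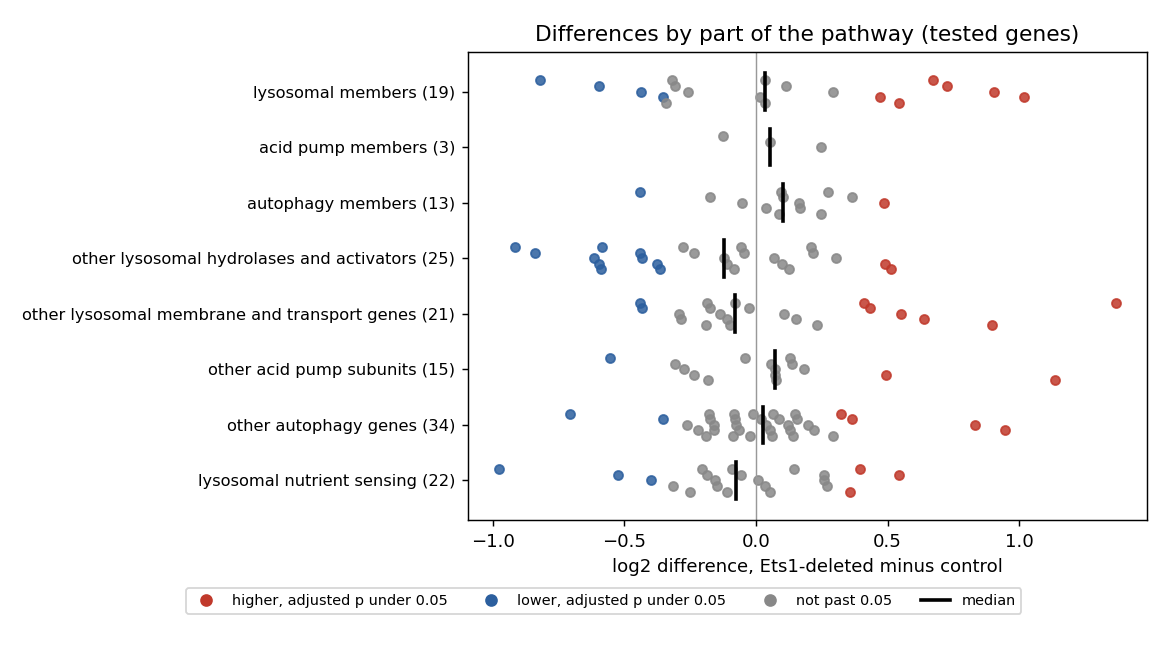
Log2 difference of every tested gene (circles), Ets1-deleted minus control, for the measured genes in their 3 parts and for the 5 lists of other pathway genes, with the number of tested genes in brackets and the median as a black bar. All 8 medians lie between -0.12 and 0.10, and the other hydrolases hold 10 of the 18 lower calls among the other genes.

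Many markers of myeloid cells and some of mast cells were higher in the same arrays as Psap, Ctsc, Ctsb, Ctsl and Mitf. In these arrays 4 of the 19 lysosomal genes, such as Mcoln1 and Ctsa, were lower and 6 higher. Of the 25 other hydrolases and activators 10 were lower, such as Ctss, and 2 higher. Of 18 myeloid markers 17 were measured and 11 tested, 9 of them above the limit in both controls, and all 11 were higher (100%). Of all tested genes 13.9% were higher and 12.8% lower. Adgre1, with a control mean of 78.7, reached the test only through its Ets1-deleted values, so its call is a description. Their 17 values summed to 3038 and 3338 intensity units in the controls and to 5667 and 5452 in the Ets1-deleted arrays. The macrophage genes Cd14 and Fcgr1 and the myeloid factor gene Cebpa stayed between 69.5 and 86.6 on all arrays, below the limit. Of 14 mast cell and basophil markers 13 were measured and 9 tested, 6 above the limit in both controls, and 7 were higher (77.8% called). Cpa3 and Hdc, with control means of 82.0 and 91.0, reached the test only through their Ets1-deleted values, so their calls are descriptions. Sums over the 13 markers were 2617 and 2631 against 4382 and 4222. Most of that gap came from the protease gene Cpa3, which went from 85.9 and 78.3 to 1497 and 1261; without it, a choice made after seeing the data, the sums were 2532 and 2553 against 2885 and 2960. Mcpt8, a basophil protease gene, went the other way (1337 and 1385 against 1097 and 1193, not past the threshold), Tpsb2 differed by 0.06, and Fcer1a and Tpsab1 stayed between 55.1 and 70.3. The sum over 9 measured T cell markers was 2768 and 2840 in the controls and 5512 and 5657 in the Ets1-deleted arrays. Its rise lay in the CD3 chain genes Cd3d, Cd3e, Cd3g and Cd247, while Zap70 fell (-1.13) and Cd4, Cd8a, Cd8b1 and Cd5 were too dim to test. Cd3e, with a control mean of 91.6, reached the test only through its Ets1-deleted values. Of 11 tested stromal markers 1 was higher (Timp3, 2.55) and 3 lower (Pdgfrb, Vcam1 and Cxcl12), 36.4% called beside 26.7% of all tested genes. Vcam1, with an Ets1-deleted mean of 94.6, reached the test only through its control values. In both Ets1-deleted arrays 8 of the 11 were below both controls, as were 31.7% of all tested genes. The sum over 14 stromal markers was 3665 and 3466 against 3710 and 3714, and without Timp3, again chosen after seeing the data, it was 3539 and 3315 against 2832 and 2963. The part of these markers in the results above was not tested.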

How the data were processed

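Transcript levels were measured on 4 Affymetrix arrays, 2 from littermate controls and 2 from Ets1-deleted mice. The authors made the deposited intensity values with RMA, per the submitters' processing notes, a method that corrects background, normalizes between arrays and summarises probes. The sources used here name neither its software nor any later scaling. The values were read as linear from their range, and log2 was taken. Values level off near the floor, which understates the difference of dim genes, and the number of arrays limits the precision.

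Probe sets were named through the platform annotation: of 45101, 34958 had 1 symbol, 932 several and 9211 were not listed. Each gene's brightest probe set (mean log2) was used, and genes at or above the median of all probe sets (97.4 intensity units) were tested with lmFit and eBayes of limma 3.58.1 in R 4.3.3, with two-sided p-values adjusted by Benjamini-Hochberg across 10873 genes and a threshold of 0.05. Residual degrees of freedom were 2 and prior ones 9.75. Intervals use the same SE. The code was tested on simulated data.

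The genes and the lists were chosen with earlier results of these data known. Named were all 36 genes, Ets1, and from each list of other pathway genes the called ones, at most the 5 of smallest p. Cell type markers were named where they moved with a result. Counts and medians of lists carry no test. Alternatives were no filter, a 70th percentile filter, quantile normalization run again, median centring, averaging a gene's probe sets, a replicate block, a variance trend, ordinary variances, each array's 5th percentile subtracted with a floor of 16 intensity units, and leaving out each array, which assumes that a single remaining array varies as those of the other group do.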

Additional observations from a re-analysis of the deposited data

How the results depend on the processing

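Of the 12 called genes, Mcoln1, Ctsa, Ctsb, Ctsc, Ctsl and Psap kept their direction and call under each of the 12 alternatives with shared variances, and 5 (Gla, Neu1, Tfe3, Ulk1 and Gabarapl1) lost it under at least 1. Mitf reached the test only through its Ets1-deleted values, so its calls say nothing about stability; averaging probe sets or the stricter filter left it out, and the stricter filter also left out Neu1. Another 7 genes were called under at least 1 alternative, and 16 under none. With ordinary variances the calls fell to 13 over all genes and to 0 among the 35 genes (11 at an unadjusted p under 0.05), the lysosomal and the autophagy genes and the other pathway genes, since 2 residual degrees of freedom remain. With 1 array left out the called genes numbered 9 to 14 of 35, 0 to 1 in the acid pump and 0 to 3 in autophagy, where 0 came without control 1. The replicate block gave 15 called genes of the 35, and 3252 of all 10873 tested genes beside 2900 in the main fit. Same-numbered arrays correlated at r = 0.167 in their deviations from the group means, and 2 pairs do not show that the numbers pair the samples. Signs turned in 10 genes, none of them called with all 4 arrays, where the largest of their differences was 0.1135: Lamp1 (-0.011 with repeated quantile normalization, -0.17 to 0.20 with 1 array left out) and Atg3 (-0.024 with averaged probe sets), and with 1 array left out Lamp2 (-0.032 to 0.26), Ctsz (-0.11 to 0.19), Hexa (-0.021 to 0.091), Atp6v0d1 (-0.030 to 0.14), Becn1 (-0.13 to 0.030), Atg7 (-0.068 to 0.15), Map1lc3a (-0.012 to 0.22) and Gabarap (-0.030 to 0.22). The cause of the other changes was not tested. Genes near the floor, such as Mitf, are limited by signal over background.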

Other observations

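Probe sets of one gene did not always give the same direction. Of the 35 genes, 23 had more than 1 probe set over the limit, and in 9 of these (Atg12, Atg3, Atg5, Becn1, Ctsz, Map1lc3a, Map1lc3b, Sqstm1 and Ulk1) the probe sets differed in sign. Among the 8 called genes with more than 1 such probe set this held for Ulk1 alone. The 4 bright probe sets of Wipi1, whose brightest missed the threshold, were all higher, by between 0.25 and 0.43, and the 4 bright ones of Lamp2 by between 0.07 and 0.19.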
